A study of Eisenia fetida with 6 samples.

Results

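RNA was sequenced from the intestine of the earthworm Eisenia fetida, and the account below is about assembly clusters in which several contigs were higher together after exposure to tri-n-butyl phosphate (TnBP). A contig is 1 assembled transcript sequence, and contigs whose identifiers share a CL number are read as 1 cluster. The exposed group was kept with 10 mg/kg TnBP and the control group without it, both as adult worms with a clitellum, in artificial soil at 20 °C in the dark for 14 days, 10 worms to a container. There were 3 libraries a group, every one made from intestines of 3 pooled worms. The labels do not say which containers the pooled worms came from, so the spread between libraries is a spread between pools that may share a container.

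Contigs were chosen on their normalized counts, called N: the expected count divided by the library's DESeq2 median-of-ratios size factor, taken from the 35181 contigs above 0 in all 6 libraries. A contig was chosen when its mean N after TnBP was 50 or more and at least 4 times the control mean, when the groups did not overlap, and when its mean share of control counts was under 0.1%. Its cluster had to hold 2 to 7 contigs, at least 2 of them chosen in this way, and no contig 4-fold lower with a control mean N of 50 or more. This gave 164 risen contigs in 72 clusters, out of 55641 contigs in all and 7606 contigs in 3261 clusters of that size. Because the choice used the means of both groups, the rise itself is described here and not tested.

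TnBP is an organophosphate ester used as a plasticizer, a solvent and a flame retardant. The earthworm intestine digests and absorbs soil organic matter and is among the first tissues that a soil contaminant meets. In an assembly made without a genome, contigs of 1 cluster are sequences alike enough to be grouped, and they can be splice forms, alleles, fragments of 1 transcript or copies of related genes. RSEM, the counting tool named in the submitters' processing notes, divides reads that match several contigs between them. The files give no gene names or sequences, so no function is given to any contig, and the tissue label could not be checked against marker genes.

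TnBP libraries held 9494666 to 9643939 expected counts and control libraries 8435554 to 9099412. Size factors were 1.31 to 1.43 for TnBP and 0.708 to 0.796 for control libraries. The scaling therefore lowers TnBP values relative to library totals, under which the median tested contig was higher after TnBP by a log2 ratio of 0.78. Ratios of N and fitted log2 changes below are relative to that shift unless another scaling is named. Shares of library counts and FPKM values are relative to library depth and include the shift.

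The risen contigs were a larger part of the transcriptome in exposed than in control intestine. Summed, they took 1.07%, 1.04% and 1.03% of counts in the 3 TnBP libraries, against 0.0771%, 0.0769% and 0.0810% in the 3 control libraries. All TnBP libraries lay far above all control libraries, which follows from how the contigs were chosen. The mean share was 1.05% ± 0.0210 after TnBP and 0.0784% ± 0.00233 in controls (SD, n = 3 each). In whole intestine, more cells of a type and more RNA per cell cannot be told apart. Leaving out the 2 most abundant clusters, the shares were 0.704% ± 0.00480 and 0.0407% ± 0.000773 (TnBP and control).

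Per contig, the ratio of mean N, TnBP over control, had a median of 10.99, with 104 contigs at 8-fold or more, 56 at 16-fold or more and 18 under 5-fold. The median contig averaged an N of 182 after TnBP and 18.4 in controls. In the edgeR fit over all 25353 contigs tested, each of the 164 was called higher at an adjusted p under 0.05, where 24.1% of all contigs tested were called higher and 24.5% lower. That split depends on the scaling, since with library totals in the same fit 53.8% were called higher and 11.3% lower. All 164 had groups without overlap by the rule, where 30.9% of all contigs tested lay higher without overlap. Nothing is read from these counts, since the choice used the same contrast. Their fitted log2 changes had a median of 3.44 and ran upward from 1.97, where all tested contigs had a median of 0.01.

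Per cluster, with the risen contigs summed, the ratio of N ran from 4.30 to 147 with a median of 10.1, and 38 of 72 clusters were at 10-fold or more. The median cluster had a summed N of 449 after TnBP and 49.7 in controls, and the upper quartile was 887 after TnBP and 91.0 in controls. In 38 clusters every contig was a risen one, and in 34 there were other contigs as well. Most clusters, 54, held 2 risen contigs, 16 held 3 and 2 held 4.

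**Figure D1:**
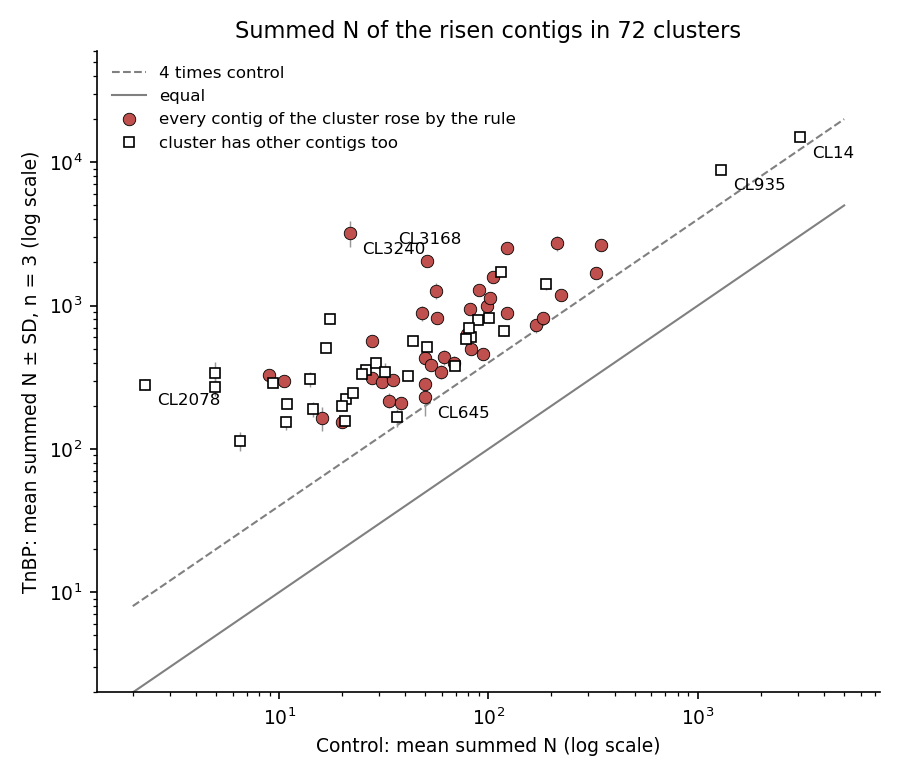
Mean summed N of the risen contigs of each cluster after TnBP (vertical, with SD over 3 libraries) against control (horizontal), both on log scales, for 72 clusters. All points lie above the line at 4 times control, from CL1247 at 4.30 times control to CL3240 at 147 times control, and CL14 and CL935 stand apart at the abundant end.

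By the summed N of their risen contigs, CL14 and CL935 were the most abundant clusters in both groups, and they rose by less than the median cluster. CL14, with 3 contigs, had a summed N of its 2 risen contigs of 14757, 15443 and 14576 in TnBP libraries and 3060, 2959 and 3206 in control libraries. The lowest TnBP library was several times the highest control library, a ratio of means of 4.85. CL14.Contig1, 1723 bases long, averaged 7612 ± 180 after TnBP and 1459 ± 76.8 in controls, a log2 fold change of 2.34 ± 0.085 (SE). CL14.Contig2, 2022 bases, averaged 7313 ± 286 and 1616 ± 58.6 (TnBP and control), a log2 fold change of 2.13 ± 0.083. Alone, this cluster made up 20.4% of the N of all risen contigs after TnBP.

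CL935 held 4 risen contigs among 6. Their summed N was 9436, 8823 and 8407 in TnBP libraries and 1311, 1204 and 1357 in control libraries, a ratio of means of 6.89. The contigs of this cluster rose by unequal amounts. CL935.Contig4, the most abundant one at 1576 bases, averaged 5712 ± 181 after TnBP and 1057 ± 58.3 in controls, a log2 fold change of 2.39 ± 0.089. CL935.Contig5, 2404 bases long, averaged 2459 ± 233 and 171 ± 32.4 (TnBP and control), a log2 fold change of 3.80 ± 0.15. The share of the cluster's risen N held by CL935.Contig4 was accordingly lower after TnBP, at 64.3% ± 2.02, than in controls, at 81.9% ± 1.79 (SD, n = 3 each).

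Other clusters had few reads in controls and many after TnBP. The pair in CL3240, whose log2 changes are the steepest among risen contigs with reads in every library, had a summed N of 2442, 3586 and 3619 in TnBP libraries and 33.9, 13.8 and 17.8 in control libraries. TnBP replicate 1 was the lowest exposed library and control replicate 1 the highest control library, and the groups stayed far apart. Both contigs moved by nearly the same ratio, 146 for CL3240.Contig2 and 151 for CL3240.Contig1, although their control values rest on 49 counts in all. Without control replicate 1, the highest of its controls, the log2 fold change of CL3240.Contig1, 7.16 ± 0.32, was 7.85. The short CL3240.Contig1, 201 bases, had an FPKM of 659 ± 153 after TnBP and 2.59 ± 2.01 in controls, the highest level per length among the risen contigs after TnBP. CL3240.Contig2, 1231 bases, had 279 ± 47.4 and 1.15 ± 0.414 (TnBP and control, FPKM).

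CL3168 rose 40.4-fold as a sum. Its summed N was 1939, 2052 and 2191 in TnBP libraries and 62.2, 46.5 and 44.4 in control libraries. CL3168.Contig2, 1762 bases, averaged 1619 ± 165 after TnBP and 48.3 ± 12.4 in controls, with a log2 fold change of 5.04 ± 0.16. The shorter CL3168.Contig1 had 597, 694 and 519.8 expected counts in TnBP libraries and 0, 6.55 and 0 in control libraries. Its only control counts lie in replicate 2, so that without this library no control count is left to set a ratio. With all libraries its log2 fold change was 7.08 ± 0.43, and 6.48 without control replicate 3.

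CL452 and CL616 are pairs whose sum varied less over control libraries than either contig did. The summed N of CL452 was 2596, 2659 and 2284 in TnBP libraries and 111.6, 142 and 113 in control libraries, a ratio of 20.6. CL452.Contig1 was listed at 0 in control replicate 2, where CL452.Contig2 had its highest control N, 142. Without control replicate 1 the log2 fold change of CL452.Contig1, 5.80 ± 0.40, was 6.40, and without control replicate 2 it was 5.17.

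In CL616 the pattern was sharper. Its summed N was 2501, 3131 and 2571 in TnBP libraries and 250.1, 227 and 161 in control libraries, a ratio of 12.8. CL616.Contig1 had an N of 1549, 2202 and 1766 in TnBP libraries and 0, 178 and 125 in control libraries. CL616.Contig2 had 952, 928 and 804 in TnBP libraries and 250.1, 49.0 and 36.4 in control libraries. Both were higher in every TnBP library than in any control library, and all reads of the pair in control replicate 1 were listed under CL616.Contig2. The log2 fold change of CL616.Contig1 was 4.11 ± 0.57, and 4.76 without control replicate 2. That of CL616.Contig2 was 2.99 ± 0.48, and 4.31 without control replicate 1.

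**Figure D2:**
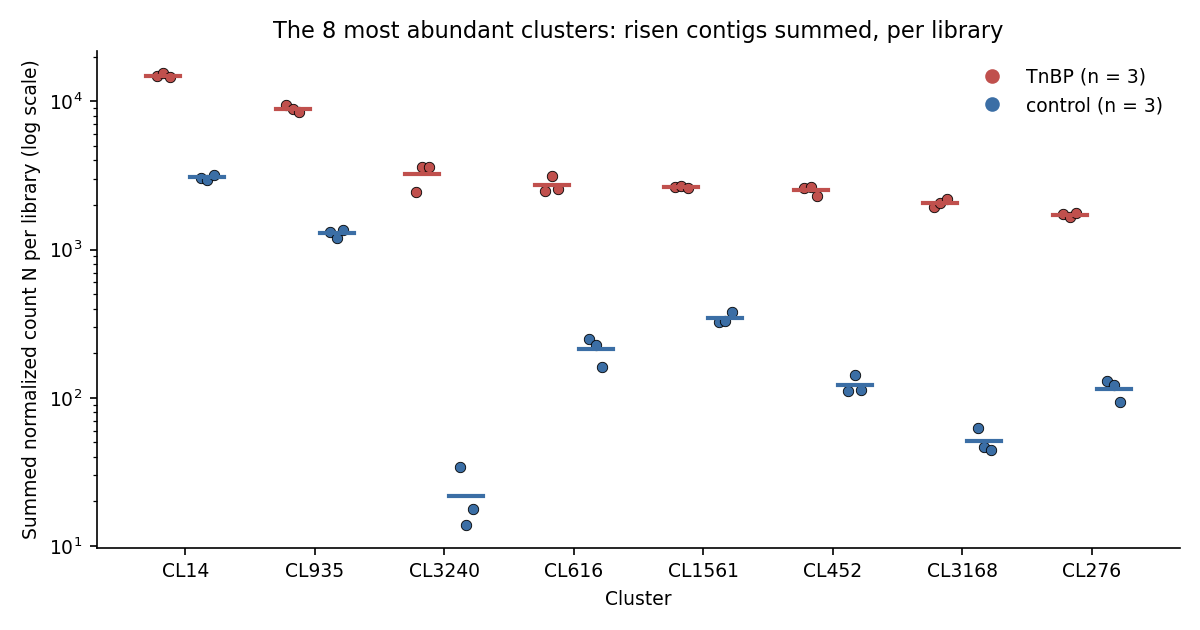
Summed N of the risen contigs in each library (points, log scale) with group means (bars) for the 8 clusters with the highest N after TnBP, TnBP left of control. The 3 libraries of a group lie close together next to the distance between groups in each of the 8, with the widest spread in the CL3240 controls at 13.8 to 33.9.

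CL1561 is a cluster in which all 4 contigs rose, each of nearly the same length (1472 to 1565 bases). Its summed N was 2650.3, 2678 and 2611 in TnBP libraries and 326, 330.3 and 378 in control libraries, a ratio of 7.67. The 3 exposed pools differed least here among the 72 clusters, with a coefficient of variation (SD over mean) of 1.26%. CL1561.Contig4 averaged 886 ± 30.8 after TnBP and 78.3 ± 15.7 in controls, a log2 fold change of 3.46 ± 0.14. CL1561.Contig2 averaged 877 ± 43.4 and 102 ± 11.3 (TnBP and control), a log2 fold change of 3.06 ± 0.12. The others, given after their values had been seen, rose 4.18-fold (CL1561.Contig1) and 6.83-fold (CL1561.Contig3).

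CL276 held 3 risen contigs among 6. Its summed N was 1735, 1656 and 1760 in TnBP libraries and 131, 122 and 93.0 in control libraries, a ratio of 14.9. The long CL276.Contig1, 2493 bases, averaged 1221 ± 74.0 after TnBP and 59.2 ± 13.8 in controls, with a log2 fold change of 4.34 ± 0.15. CL276.Contig5, 1241 bases, averaged 428 ± 23.6 and 53.4 ± 8.21 (TnBP and control), with a log2 fold change of 2.96 ± 0.14. CL276.Contig2, 304 bases, had 72.3, 107 and 97 counts in TnBP libraries and 3, 2 and 1 in control libraries. The longest contig held 71.1% ± 2.10 of the risen N after TnBP and 51.1% ± 4.78 in controls.

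Some clusters had almost no reads in controls. The risen contigs of CL2078 were the only set of 1 cluster with under 3 counts in every control library. Their summed N was 290.4, 299 and 253 in TnBP libraries and 4.196, 1.39 and 1.27 in control libraries. The 3 control libraries together held 5.08 counts, too few for a ratio to be read closely, and the summed log2 ratio of 6.94 was 7.72 without control replicate 1. CL2078.Contig6 had no control counts and CL2078.Contig5 only 2.97, all in control replicate 1. CL2078.Contig2 had 89.8, 141 and 113 counts in TnBP libraries and 0, 1.11 and 1 in control libraries.

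In CL668 the summed N was 734, 870.0 and 817 in TnBP libraries and 17.0, 8.79 and 26.7 in control libraries, a ratio of 46.2. CL668.Contig1, 1126 bases, had a log2 fold change of 5.70 ± 0.25, which was 6.28 without control replicate 3, the highest of its controls. CL668.Contig4, 890 bases, had 203, 210 and 192 counts in TnBP libraries and 4, 3 and 5 in control libraries, with a log2 fold change of 4.74 ± 0.24. These counts are whole numbers in all 6 libraries.

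Control libraries listed 37 of the risen contigs at 0 in at least 1 library and 4 in every library. The 4 were CL928.Contig1 (7400 bases), CL186.Contig3 (1747), CL2272.Contig2 (2342) and CL2078.Contig6 (1660), and they were singled out after their values had been seen. Against a floor of 3 counts in each control library they were at least 71.0-fold, 38.8-fold, 19.8-fold and 25.3-fold higher after TnBP, in that order. CL928.Contig1 had 348, 357 and 444 counts in TnBP libraries. Its near neighbour in length, CL928.Contig2 (7142 bases), had an N of 636, 483 and 483 in TnBP libraries and 127, 69.7 and 104 in control libraries. Every control read of this pair was thus listed under CL928.Contig2, which after TnBP held 65.4% ± 6.43 of the pair's N. A value of 0 for 1 contig of such a pair is an estimate by the counting tool, and whether the second form was missing in controls cannot be told from it.

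Contigs of a cluster rose together by unequal ratios. The largest ratio within a cluster was a median of 2.25 times the smallest, under 2 times in 33 clusters and 4 times or more in 15, counting contigs at 0 in controls as having no upper limit. CL1185, named after its values had been seen, has the widest range among those with control counts in each contig. There, CL1185.Contig2 was listed with 156, 106 and 132 counts in TnBP libraries and 1, 0 and 0 in control libraries, whereas CL1185.Contig1 had an N of 345, 368 and 327 in TnBP libraries and 59.9, 87.1 and 82.3 in control libraries. Both rose, and only the second was well measured in controls.

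**Figure D3:**
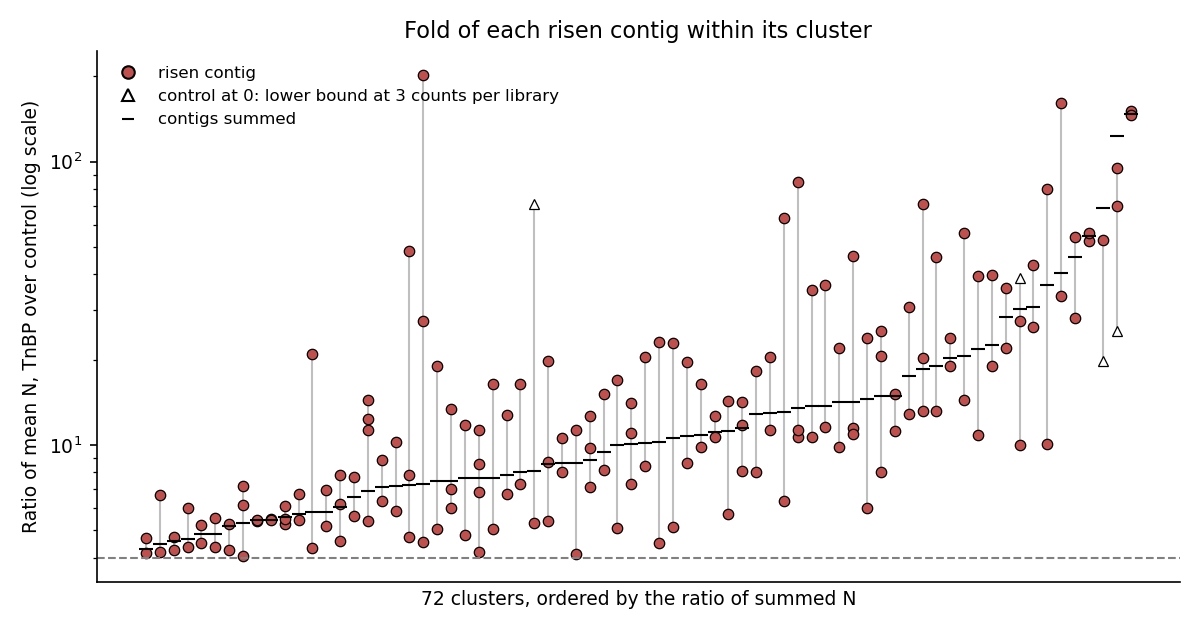
Ratio of mean N, TnBP over control, on a log scale for each of the 164 risen contigs (points) in 72 clusters ordered by the ratio of their summed N (dashes), with contigs of 1 cluster joined. Triangles mark 4 contigs at 0 in controls, drawn at the least ratio that 3 counts in each control library allow, and the dashed line marks 4-fold.

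The leading contig, the one with the most N among the risen contigs of its cluster, was the same in both groups in 54 clusters and differed in 18. Its share lay higher in every TnBP library than in any control library in 14 clusters, lower in 21, and overlapped in 37. In the 46 clusters with at least 20 summed counts in every control library, the leading contig was the same in 39, and its share moved by under 10 percentage points in 23. CL1901, a pair in which the leading CL1901.Contig2 held 95.3%, 95.7% and 95.7% in TnBP libraries and 95.3%, 94.5% and 92.5% in control libraries, was near constant while its summed N rose 14.9-fold. That cluster was picked after its values had been seen.

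CL502, CL3005 and CL672 had the largest changes of leading share among the 72 clusters. In CL3005 the longer contig, CL3005.Contig2 of 2214 bases, held 79.4%, 84.5% and 85.0% of the pair in TnBP libraries and 33.3%, 44.4% and 33.3% in control libraries. The order of the pair turned in every library, with CL3005.Contig1 (1072 bases) ahead in controls. The counts behind it were 378, 403 and 341 in TnBP libraries and 1, 4 and 3 in control libraries for CL3005.Contig2, and 98, 74 and 60 against 2, 5 and 6 for CL3005.Contig1. Control shares therefore rest on 3 to 9 reads a library.

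CL672 behaved in the same direction, with control shares that rest on 10, 11 and 16 summed counts. CL672.Contig2 held 67.5%, 72.4% and 68.0% in TnBP libraries and 49.6%, 36.3% and 14.2% in control libraries. Its N averaged 115 ± 25.9 after TnBP and 4.97 ± 2.06 in controls, against 50.03 ± 4.86 and 11.1 ± 5.52 for CL672.Contig1 (TnBP and control). Both contigs rose, by log2 fold changes of 4.50 ± 0.33 and 2.09 ± 0.32.

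**Figure D4:**
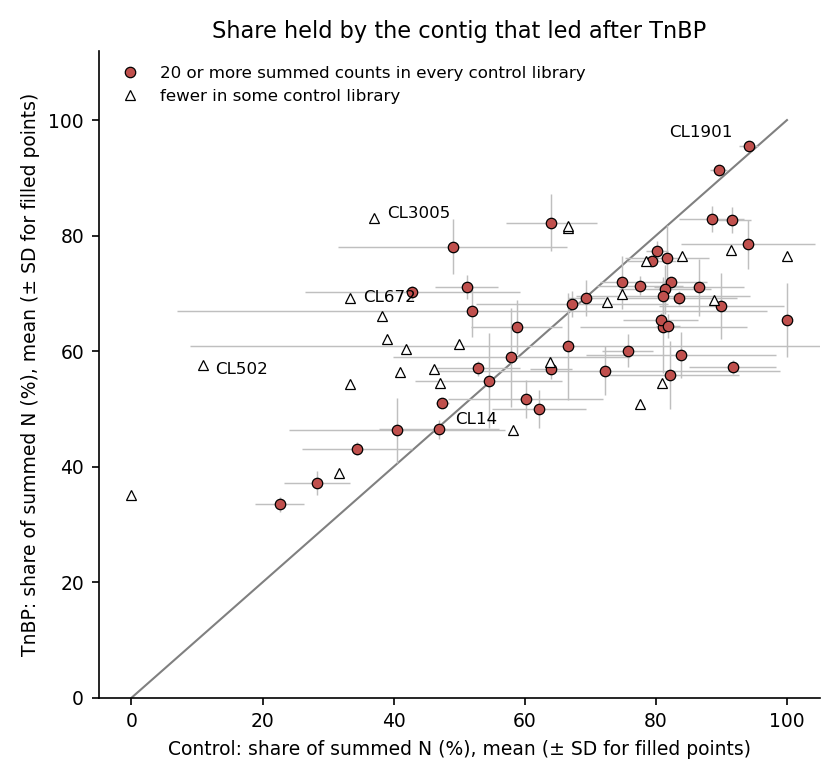
Share of the risen contigs' summed N held by the contig that led after TnBP, in TnBP (vertical) against control (horizontal), as means over libraries with reads, for 72 clusters. Filled points, with SD, have 20 or more summed counts in every control library, open triangles have fewer, and CL502, CL3005 and CL672 are triangles well above the diagonal.

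Decimals in the expected counts show that reads were divided between contigs, but not how many. A whole count does not show that no read was shared. In controls, CL2107.Contig1 was listed at 19, 0 and 21 and CL2107.Contig2 at 0, 24 and 0. Counts within 0.005 of a whole number in all 6 libraries were found for 16 of the 164 risen contigs, or 9.76%. Of the other contigs in clusters of 2 to 7 with a mean N of 50 or more after TnBP, 6.11% had such counts, and of single unigenes at that abundance 69.5%. Fractional counts are thus usual for contigs in clusters at this abundance.

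In 4 clusters every risen contig had whole counts, and all 4 are pairs with no further contig. CL2968 had a summed N of 1606, 1722 and 1753 in TnBP libraries and 340.5, 267 and 375 in control libraries, a ratio of 5.17. CL2113 had 439.9, 430.4 and 413 in TnBP libraries and 59.3, 40.2 and 49.5 in control libraries, a ratio of 8.61. The other two were CL1247, with 752, 789 and 639 in TnBP libraries against 179, 175 and 154 in control libraries, and CL3005, described above. In these pairs the counts of both contigs were whole, at ratios of 4.30 to 36.6 for the sum.

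CL107, singled out after its values had been seen, shows the reverse case. CL107.Contig1 had an N of 37.0, 148 and 153 in TnBP libraries and 25.4, 0 and 18.4 in control libraries. CL107.Contig2 had 209, 63.7 and 42.1 in TnBP libraries and 0, 30.1 and 26.0 in control libraries. Where one was high the other was low, while their sum was 246, 212 and 195 after TnBP and 25.4, 30.1 and 44.4 in controls. The coefficient of variation over TnBP libraries was 58.2% and 86.5% for the contigs and 11.98% for the sum. Across the 72 clusters, the sum varied less over TnBP libraries than every contig in it in 32. Sums of contigs that vary independently can also vary less than their parts, and the source of this was not tested.

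CL2272 holds 2 pairs of contigs of equal length. CL2272.Contig1 and CL2272.Contig4, both 2190 bases, had unequal N in TnBP libraries, at 195, 328 and 261 for CL2272.Contig1 and 96.5, 0 and 0 for CL2272.Contig4. In control libraries both had the identical N of 2.12, 5.02 and 7.62. Whether these are separate transcripts cannot be told from the counts.

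Beside the 164 risen contigs, 34 of the clusters held 63 other contigs. Among them 26 were 4-fold or more higher but under a mean N of 50 after TnBP. Any value over a control mean of 0 was counted there, and overlap was allowed. Some of the 26 had counts in 1 TnBP library only, such as CL2272.Contig3 with 51.4, 0 and 0. A further 17 had a mean N of 50 or more but were less than 4-fold higher, and 7 were higher by less than 4-fold at low N. Another 11 at low N and 2 at higher N were not higher. Of the 63, 41 could be tested, and of these 32 were called higher and 2 lower (edgeR), and 7 were not called. For all contigs tested, 24.1% were called higher and 24.5% lower, and within clusters of 2 to 7 contigs 32.5% and 23%, all with TMM scaling. The choice of clusters barred a 4-fold fall in contigs with a control mean N of 50 or more, so these counts are a description and not a test. Of the same 41, 33 lay higher without overlap and 1 lower, where 30.9% of all contigs tested lay higher and 27% lower. Among the 22 with too few counts to be tested, CL248.Contig4 (2185 bases), named after its values had been seen, had an N of 0, 0 and 0 in TnBP libraries and 12.6, 22.1 and 30.2 in control libraries.

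The 2 contigs called lower were both in CL502, a cluster of 6 in which the balance between contigs turned. CL502.Contig4, 1525 bases, had an N of 28.4, 33.7 and 34.7 in TnBP libraries and 83.9, 61.1 and 89.1 in control libraries, a log2 fold change of -1.32 ± 0.21. CL502.Contig5 had 21.8, 35.1 and 13.8 in TnBP libraries and 33.5, 39.6 and 63.0 in control libraries, with overlap between the groups. Its log2 fold change was -1.02 ± 0.35 (edgeR adjusted p = 0.032), and its call was lost in the replicate block (edgeR adjusted p = 0.062), with library totals (edgeR adjusted p = 0.53) and in DESeq2 (adjusted p = 0.081). It was also lost without TnBP replicate 1, TnBP replicate 3 or control replicate 3, at edgeR adjusted p of 0.086, 0.11 and 0.15. The risen CL502.Contig3 had 113, 106 and 106 in TnBP libraries and 0.650, 3.18 and 1.33 in control libraries, and CL502.Contig6 had 74.0, 63.5 and 108 against 11.1, 16.04 and 11.4. The risen pair held 78.9%, 71.1% and 81.5% of the cluster's N in TnBP libraries and 9.07%, 15.8% and 7.73% in control libraries. With all 6 contigs summed, the cluster had 238, 238 and 262 after TnBP and 129, 121 and 165 in controls. Without control replicate 2 the log2 fold change of CL502.Contig3, 5.83 ± 0.40 on 4.04 control counts in all, was 7.06. The call on CL502.Contig4 was lost under limma on FPKM values, with adjusted p of 0.12 and 0.11 and log2 fold changes of -0.41 and -0.51.

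In most of the 34 clusters the risen contigs were the bulk of the cluster after TnBP. They held over 50% of its N in 29 clusters after TnBP and in 18 in controls. Their median share was 87.8% and 50.8% (TnBP and control). A higher share after TnBP follows largely from the choice, which took contigs by their rise and their N after TnBP. In 5 clusters the risen contigs remained a minority after TnBP: CL3221, CL76, CL532, CL224 and CL1388, named here after their values had been seen. CL3221 is the extreme case. Its long CL3221.Contig1, 1598 bases, had an N of 32030.5, 36980.3 and 35049 in TnBP libraries and 26598, 27672 and 25812 in control libraries, whereas the short CL3221.Contig2, 314 bases, had 171, 195 and 197 against 25.4, 17.6 and 14.0. The risen contigs were 0.712%, 0.683% and 0.712% of that cluster in TnBP libraries and 0.111%, 0.0726% and 0.0688% in control libraries.

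CL76 also held steeply risen contigs beside a more abundant one, but there the groups of the abundant contig overlapped. CL76.Contig4 had an N of 154, 159.6 and 172 in TnBP libraries and 0, 0 and 8.70 in control libraries. CL76.Contig3, the most abundant contig of the cluster, had 469, 415 and 505 in TnBP libraries and 469, 502 and 562 in control libraries. In CL1388 the 2 contigs outside the choice moved the same way as the risen ones by less. CL1388.Contig2 had 837, 810.0 and 801 in TnBP libraries and 219, 200.4 and 203 in control libraries. CL1388.Contig3 had 899.6, 918 and 857 in TnBP libraries against 334, 371 and 354 in control libraries.

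**Figure D5:**
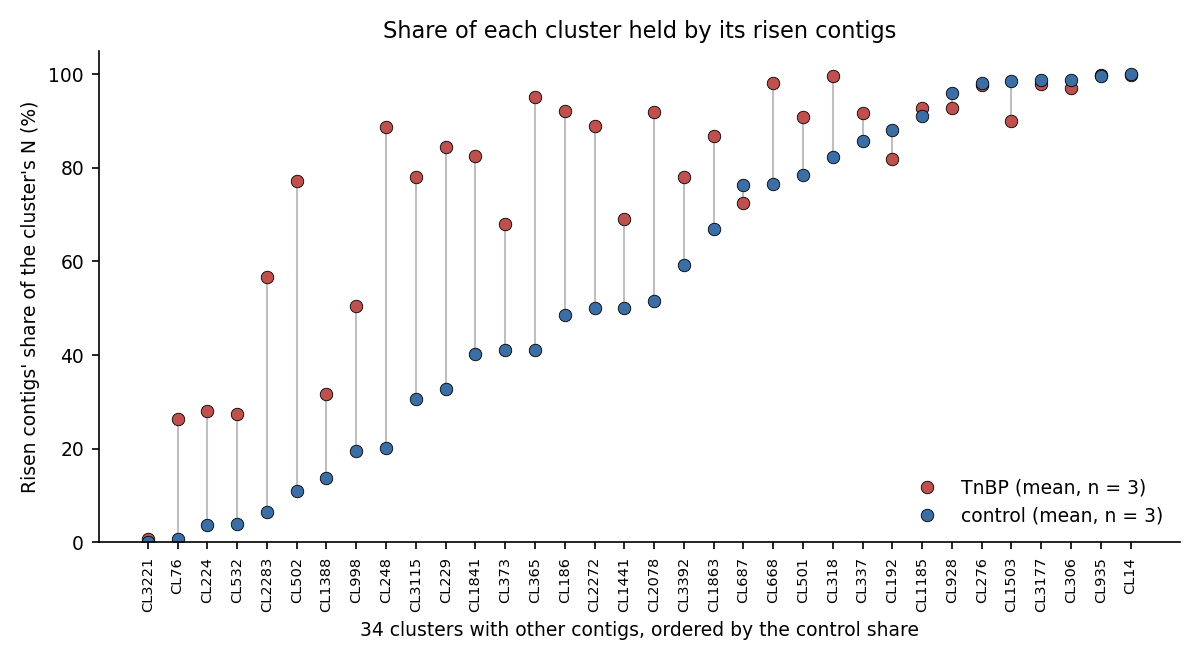
Share of each cluster's N held by its risen contigs, as means over 3 libraries after TnBP (red) and in controls (blue), in the 34 clusters that hold other contigs, ordered by the control share. The share was higher after TnBP in 26 of 34 clusters, which follows largely from the choice, and CL3221 stays under 1% in both groups.

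The risen contigs had a median length of 1271 bases, with a range of 201 to 7400, quartiles of 877 and 1940, and 7 under 300. Other contigs of clusters of 2 to 7 with a mean N of 50 or more after TnBP had a median of 1600.5 bases, single unigenes of that abundance 1296, and all contigs 390. Within clusters, the longest risen contig was at least 2 times the shortest in 18 clusters and within 10% of it in 21. The longest one led in N in 37 clusters and in FPKM, a level per length, in 24.

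On the FPKM scale, which unlike N is not divided by the size factors, the risen contigs had a median level of 23.6 after TnBP and 1.20 in controls. All 164 averaged 1 FPKM or more after TnBP, 91 did so in controls, and 19 reached 100 or more after TnBP. After CL3240.Contig1, the next levels after TnBP were those of CL14.Contig1 with 623 ± 13.1, CL935.Contig4 with 513 ± 35.5 and CL14.Contig2 with 509 ± 15.7 FPKM. In controls these had 71.8 ± 4.28, 57.0 ± 2.004 and 67.6 ± 1.73 FPKM (SD, n = 3). The neighbours CL935.Contig4 and CL14.Contig2 did not differ beyond their spread after TnBP.

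Between exposed pools, the risen contigs varied about as much as other cluster contigs with a high N after TnBP. The choice asked for groups without overlap and a high N after TnBP, so it bears on the spreads given here. The coefficient of variation of N over 3 libraries had a median of 11.5% after TnBP and 33.3% in controls, where counting error alone would give about 6.33% and 26.2% at the median contig. Other contigs of clusters of 2 to 7 with a mean N of 50 or more after TnBP had a median of 10.8% after TnBP and 15.5% in controls. Over the 3 control libraries together, 24 risen contigs had 10 or fewer counts and 37 had over 100, and the part of low counts in the spread was not tested. Of the TnBP libraries, replicate 1 had the highest N for 55 contigs, replicate 2 for 64 and replicate 3 for 45, so no pool was the highest for most of them. CL645 varied most as a sum after TnBP, at 26.5%, with a summed N of 219, 177 and 298 in TnBP libraries and 54.9, 41.1 and 53.3 in control libraries. Its long CL645.Contig2 moved with this spread, at 168, 125 and 243 in TnBP libraries, whereas the short CL645.Contig1 stood at 51.1, 52.4 and 54.9.

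At the borders of the choice, CL672.Contig1 lay just inside the limit on N, with a mean of 50.03 after TnBP and 11.1 in controls, and CL687.Contig3 just outside with 45.6 and 11.2. CL2676.Contig2 was just inside the limit on the ratio, at 4.05, with means of 427 after TnBP and 105.4 in controls. CL1388.Contig2 was just outside at 3.93. The condition on the control share removed no contig, the highest share being 0.0139% for CL14.Contig2.

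Rises of this size were met by 421 contigs in clusters of 2 to 7, or 5.54% of them, and by 489 single unigenes, or 1.03%. Among contigs with a mean N of 50 or more after TnBP the shares were 15.9% in these clusters and 8.14% among single unigenes. Of the 421, 164 are the contigs described here, 251 were the only such contig in their cluster, and 6 were in 2 clusters that also held a contig 4-fold lower. The same rule turned round, for falls, was met by 62 contigs in 29 clusters. Its conditions on the single contig were met by 200 contigs in clusters of 2 to 7, or 2.63% of them. The number of risen contigs depends on the scaling, at 333 with library totals in place of 164.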

How the data were processed

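The authors deposited for each library a table of lengths, expected counts and FPKM for the assembled sequences, per the file headers. Deposited expected counts are not whole throughout and not normalized. FPKM values were scaled for length and depth by the authors, per the file headers. Per the submitters' processing notes RSEM and Bowtie 0.12.2 were used, and the notes also list mm8, a mouse build, although every identifier carries an Eisenia fetida suffix. The assembler and its filters, and whether counting used strand, were not given in the sources used here. Sequences missing from a table were set to 0.

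Rounded expected counts were fitted with edgeR 4.0.16 in R 4.3.3 (filterByExpr with a minimum count of 10, TMM, quasi-likelihood test, Benjamini-Hochberg over 25353 contigs). Standard errors were derived from the F statistics. Log2 fold changes are TnBP over control. With 3 libraries a group, precision rests on the spread between pools. Squared differences between any 2 libraries of a group were 2.58 to 3.24 times those of sampling alone, by chi-square over degrees of freedom. Very rare and very abundant contigs were left out of this measure, and division of reads may add to it. Each library was counted as 1 replicate, although this spread does not show whether the pools came from separate containers. Rule and fits were checked on simulated data.

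Contigs were named by a rule on their cluster: the 8 clusters with the highest N after TnBP, the 4 steepest among those with enough control counts, the 3 with most risen contigs (ties by N), those nearly absent in controls, the 3 with the largest change of leading share, the extremes of spread, the threshold borders, and the cluster of the lowest other contig. Enough control counts meant at least 3 summed counts of risen contigs in every control library. CL2272 and CL76 fell short of this and were steeper than CL668. The contigs and this rule were chosen with earlier results of these data known. Alternatives were DESeq2 1.42.0, other scalings, filters and limits, limma 3.58.1 on log2 FPKM with a pseudocount of 1 or of 0.1 for contigs at 0.5 FPKM in 3 libraries, the replicate block, and each library left out.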

Additional observations from a re-analysis of the deposited data

How the results depend on the processing

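The number of risen contigs, 164 in 72 clusters, was 163 in 72 on TMM-scaled counts and 157 to 169 in 69 to 75 with any 1 library left out, of which 152 to 157 were among the 164. It depends on scaling and limits. Library totals gave 333 contigs in 146 clusters, which include all 164, a mean N of 100 gave 106, and a mean N of 20 gave 274 in 120 clusters. Allowing only contigs with whole counts left 8 in 4 clusters. In those 8 the share of library totals was 0.0455% after TnBP and 0.00479% in controls, the median coefficient of variation after TnBP was 7.58%, and the leading contig differed in 1 cluster. Taking the control share over whole clusters, an alternative chosen after the data had been seen, removed CL3221.

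All 164 were called higher, or 162 to 164 with any 1 library left out, which follows largely from the choice on the same contrast. Calls over all contigs tested numbered 12321, or 11114 to 11893 with any 1 library left out. A filter at 5 CPM called 7243 contigs, and the FPKM fits 21812 and 19786. Higher and lower calls were 38.9% and 7.08%, and 35.1% and 6.58%, in the FPKM fits, where TMM gave 24.1% and 24.5%. The other contigs of these clusters called higher numbered 32 (16 under 5 CPM, 31 to 35 with a library left out). Those called lower numbered 2, or 2 to 3 with a library left out, not always the same contigs. With library totals, the 5 CPM filter or the replicate block 1 was called lower, and 0 with limma on FPKM values. Deviations of same-numbered libraries correlated at -0.003, 0.045 and -0.016, so no shared deviation was seen. With 3 libraries a group, this cannot settle whether the numbers mark pairs. The replicate block moved no other count by over 1.5 times. With any 1 library left out, the risen contigs' share stayed at 1.03% to 1.05% after TnBP and 0.0770% to 0.0791% in controls. Their median coefficient of variation was 8.43% to 11.5% after TnBP and 26.8% to 33.3% in controls, the leading contig differed in 16 to 18 clusters, and 16 or 17 contigs had whole counts. For 31 contigs of the naming rule, 12 alternatives each were run and none reversed. All of them except CL502.Contig4 were chosen for their rise in these libraries, so their direction was largely fixed in advance. The causes of the shifts between settings were not tested. Low control counts limit the precision of ratios.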
